A study of Mus musculus with 10 samples.

Results

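Hepatokines are hormones that the liver secretes into blood, and the transcripts of 9 of them were followed here in regenerating mouse liver: Gdf15, Fgf21, Tsku, Angptl4, Angptl8, Ahsg, Fetub, Inhbe and Lect2. They were taken by symbol from the 23056 gene symbols of the count table, and all 9 were present and passed the filter on low counts. The group was put together with the fold changes of KO over WT livers in this same table in view, so its genes were chosen partly on the values described below. Their values are therefore a description. No p is given for any of the 9, and whether the fit over the whole table called them is stated as a count that supports nothing. Tests are given for genes outside the group.

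The liver RNA made up 4 libraries from mice labelled as knockouts of Ifrd1 (KO, genotype label IFRD1-KO) and 6 from wild-type mice (WT). All mice had undergone partial hepatectomy, with removal of the median and left lateral lobes, and all livers date from 12 hours after surgery, so no unoperated state enters any comparison. Strain, age, sex, the deleted part of Ifrd1 and the cells in which it was deleted are not stated in the labels, and the lobe sampled is not stated. Ifrd1, a transcriptional co-regulator, stood at 13.02, 22.6, 20.8 and 21.6 CPM (read counts scaled to the TMM-adjusted size of each library) in KO replicates 1 to 4, against 40.2 to 81.7 CPM in WT livers, so the genotypes did not overlap and transcript remained in every KO library.

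Libraries held 12675838 to 17098012 counts in KO and 12307446 to 14340623 counts in WT. The 10 hepatocyte markers, all detected in every library, summed to 54162 to 64016 CPM in KO and 42662 to 89119 CPM in WT, with WT replicate 4 lowest and WT replicate 2 highest. Of these only Tat was called, lower in KO. The 8 sinusoidal endothelium markers summed to 113 to 182 CPM in KO and 91.3 to 174 CPM in WT, and only Fcgr2b was called, higher in KO. The 8 Kupffer cell markers summed to 40.7 to 80.9 CPM in KO and 50.8 to 304 CPM in WT, and none of them was called. WT replicate 2 also had the highest monocyte and neutrophil sum (199 CPM, against 17.4 to 44.9 CPM in the other libraries) and lymphocyte sum (36.2 CPM, against at most 2.62 CPM). The 7 cholangiocyte markers summed to 43.7 to 66.3 CPM in KO and 33.0 to 285 CPM in WT, highest in WT replicate 1. Adipocyte markers reached at most 4.02 CPM in any library, and Adipoq, Plin1, Cfd and Retn each had 0 counts in some libraries. In bulk tissue, fewer cells of a type and less RNA per cell cannot be told apart.

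The 9 hormones differ in how the liver uses them. Gdf15, a divergent member of the TGF-beta superfamily, and Fgf21, an endocrine fibroblast growth factor, are made by hepatocytes under cellular or nutrient stress; Gdf15 acts on a brainstem receptor complex of Gfral and Ret, and Fgf21 on FGF receptors together with the co-receptor beta-klotho (Klb). Angptl4 and Angptl8 restrain lipoprotein lipase in fasting and feeding, while Ahsg (fetuin-A) and Fetub (fetuin-B) are abundant plasma proteins of the cystatin superfamily. Inhbe encodes a subunit of activin E, Lect2 a chemotactic protein induced by beta-catenin signalling, and Tsku (tsukushi) a secreted leucine-rich repeat protein.

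Promoter windows from RefSeq (GRCm38.p6, 250 bases before to 50 after an annotated start) were held for 8 of the 9 genes, all but Angptl4, in 11 windows. The C/EBP-ATF response element, the site through which ATF4 is known to act on stress genes, was searched as TGATGNAA on both strands. It was found in the windows of Fgf21, Angptl8 and Inhbe, and in no window of the other 5. Of all 32851 windows of this length, 3.97% held it. The 3 windows are shown because they carry this shared element, with every match in capitals. Each is written 5′ to 3′ on the strand of the gene, from chr7:45615441-45615740 (minus strand) for Fgf21, chr9:21835260-21835559 (plus strand) for Angptl8 and chr10:127351799-127352098 (minus strand) for Inhbe.
Fgf21: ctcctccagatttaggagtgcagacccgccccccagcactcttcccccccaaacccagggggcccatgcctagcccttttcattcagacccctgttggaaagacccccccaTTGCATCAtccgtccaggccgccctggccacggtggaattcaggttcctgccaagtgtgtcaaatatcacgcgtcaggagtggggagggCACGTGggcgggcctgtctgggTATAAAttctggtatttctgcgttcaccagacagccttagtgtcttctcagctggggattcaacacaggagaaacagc
Angptl8: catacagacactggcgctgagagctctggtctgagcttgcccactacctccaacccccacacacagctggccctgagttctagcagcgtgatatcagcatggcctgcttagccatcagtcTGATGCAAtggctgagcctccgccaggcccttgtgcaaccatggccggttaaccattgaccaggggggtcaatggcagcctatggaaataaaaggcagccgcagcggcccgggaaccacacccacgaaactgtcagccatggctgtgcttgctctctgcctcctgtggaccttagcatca
Inhbe: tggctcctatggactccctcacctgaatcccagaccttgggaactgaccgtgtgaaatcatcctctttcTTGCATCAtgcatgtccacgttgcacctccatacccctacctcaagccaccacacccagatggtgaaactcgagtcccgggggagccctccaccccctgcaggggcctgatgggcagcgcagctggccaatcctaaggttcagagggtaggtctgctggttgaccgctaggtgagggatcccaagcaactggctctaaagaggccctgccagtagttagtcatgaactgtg
In Fgf21 the element begins 139 bases before the start, in Angptl8 130 bases and in Inhbe 181 bases before it. The other capitals in the Fgf21 window are an E-box, searched as CACGTG, and a TATA box, searched as TATAAA. An E-box was also found in a Gdf15 window and a TATA box in a Fetub window, and these occur in 7.15% and 13.6% of all windows. The antioxidant response element core, searched as TGACNNNGC, was found in windows of Ahsg and Fetub (12.4% of all windows). The cAMP response element (TGACGTCA, 1.79%) and the AP-1 element (TGANTCA, 7.81%) were in no window of the group. None of these matches overlapped another. A match describes letters only.

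Scaled by the annotated exon length of each gene, Ahsg was the most abundant transcript of the group in both genotypes, at 2279 ± 236 CPM per kilobase in KO and 2161 ± 539 CPM per kilobase in WT (SD, n = 4 and 6), and Fetub came next at 275 ± 36.1 in KO and 289 ± 47.4 CPM per kilobase in WT. Below these the order was not the same in the genotypes. Gdf15 was the lowest of the 9 in KO, at 8.46 ± 4.39 CPM per kilobase, whereas in WT it stood at 77.8 ± 37.2 CPM per kilobase, beside Lect2 (80.5 ± 25.4), Tsku (74.0 ± 17.8) and Angptl4 (68.9 ± 8.83), whose libraries overlapped with its own and with each other. In KO, Lect2 (79.7 ± 8.77), Angptl4 (65.6 ± 9.42) and Angptl8 (65.5 ± 31.3 CPM per kilobase) overlapped in the same way, and Tsku (26.9 ± 3.97), Inhbe (20.4 ± 6.57) and Fgf21 (16.6 ± 6.03 CPM per kilobase) formed the next tier, each overlapping with its neighbour. In WT, Angptl8 (25.2 ± 25.9), Fgf21 (20.7 ± 18.1) and Inhbe (9.53 ± 7.44 CPM per kilobase) came last, and their libraries overlapped. Exon lengths join all annotated transcripts (5319 bases for Inhbe, 865 for Angptl8), so a gene whose liver transcript is shorter is set too low on this scale.

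**Figure D1:**
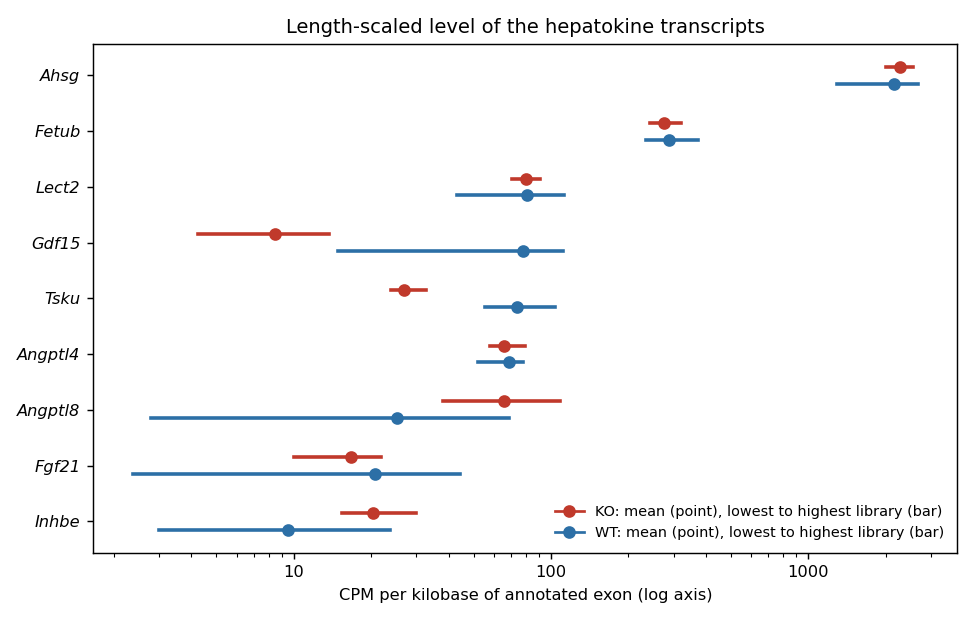
Level per kilobase of annotated exon (log axis) for each of the 9 genes, with the group mean as a point and the lowest to highest library as a bar, for 4 KO and 6 WT livers. Gdf15 had the lowest mean in KO at 8.46, against 77.8 in WT, with KO libraries that overlapped with those of Fgf21. Ahsg, Fetub, Lect2 and Angptl4 had nearly the same mean in KO and WT.

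**Figure D2:**
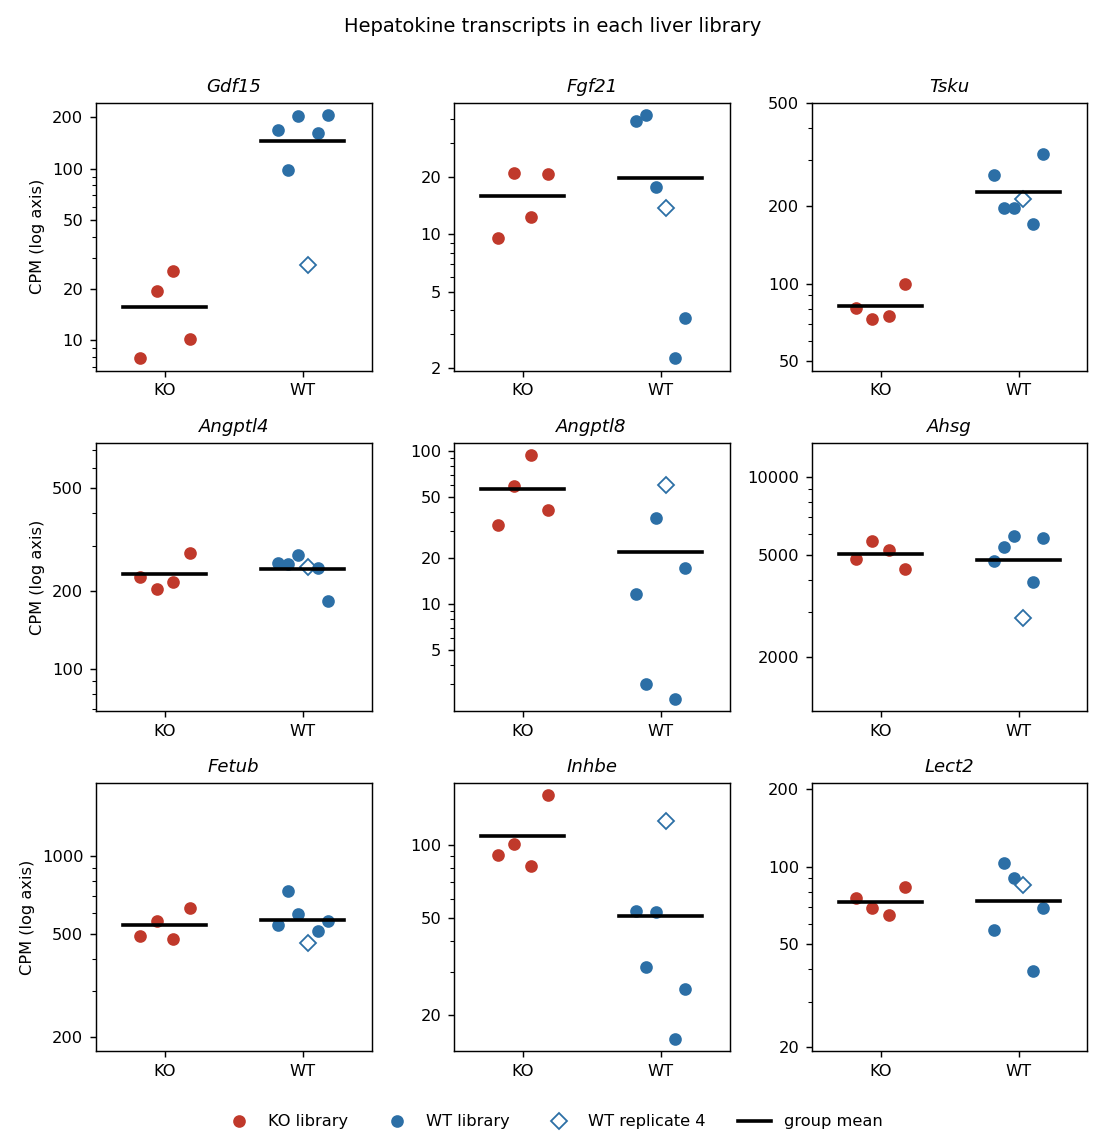
CPM of each of the 9 genes in every library (log axes, a separate scale for each gene), with 4 KO livers left and 6 WT livers right, the group mean as a line and WT replicate 4 as an open diamond. Gdf15 and Tsku were lower in every KO liver than in any WT liver, and Fgf21, Angptl8 and Inhbe spread most widely among WT livers.

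Gdf15 (ENSMUSG00000038508.7, chromosome 8, 70629393 to 70632456, minus strand, protein coding) showed the largest fold difference of the group. It was at 7.83, 19.3, 25.4 and 10.2 CPM in KO replicates 1 to 4, from 142 to 330 counts, against a lowest value of 27.5, a median of 165 and a highest of 206 CPM in WT livers. The genotypes did not overlap, but only narrowly, since WT replicate 4 at 27.5 CPM lay just above the highest KO liver and the other WT livers lay at 98.5 CPM or more. The log2 fold change was -3.20 (SE 0.56), a fitted level 9.22-fold lower in KO, and it was -3.42 without WT replicate 4. The Kupffer cell marker sum is a measure of a cell type that can also make this cytokine. Among WT livers it was lowest in WT replicate 4 (50.8 CPM), which had the lowest Gdf15. It was highest in WT replicate 2 (304 CPM), which had the lowest Gdf15 of the other 5 WT livers (98.5 CPM). In WT replicates 1, 3, 5 and 6 the marker sum was 101, 82.6, 148 and 178 CPM, with Gdf15 at 168, 202, 162 and 206 CPM. In KO replicates 1 to 4 the sum was 40.7, 70.3, 80.9 and 61.3 CPM, the same order as Gdf15. The part of those cells was not tested. Of its receptor complex, Gfral was not among the gene symbols of the count table, and Ret stayed at or below 0.33 CPM and was not tested.

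Tsku (ENSMUSG00000049580.12, chromosome 7, 98350668 to 98361328, minus strand, protein coding) was the other gene that was lower in every KO liver, with less spread. It was at 80.3, 72.9, 75.0 and 99.4 CPM in KO livers, against a lowest value of 170, a median of 205 and a highest of 316 CPM in WT livers. The highest KO liver lay well below the lowest WT liver. The log2 fold change was -1.46 (SE 0.20), a fitted level 2.76-fold lower in KO. In Tsku, WT replicate 4 (213 CPM) lay in the middle of the WT range, unlike in Gdf15, and the fold change without it was -1.48 on the log2 scale. Tsku belongs to the small leucine-rich proteins, of which 10 others were tested. Of these 0 were called by edgeR's quasi-likelihood test, by DESeq2 and by limma-voom, and 0 had an unadjusted edgeR p under 0.05. The fit without WT replicate 4 called 1 of them higher and 2893 genes over the whole table. Of the 10, 9 had fold changes above 0, and their median log2 fold change was 0.45. Of all tested genes, 51.6% had fold changes below 0. The stellate cell markers summed to 228 to 305 CPM in KO and 197 to 375 CPM in WT.

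Fgf21 (ENSMUSG00000030827.5, chromosome 7, 45613886 to 45615490, minus strand, protein coding) differed little between genotypes but greatly among WT livers. It was at 9.54, 20.8, 12.4 and 20.6 CPM in KO livers, against 39.1, 42.1, 17.6, 13.7, 2.24 and 3.63 CPM in WT replicates 1 to 6. The KO livers thus fell inside a WT range that spanned 18.8-fold, from 26 counts in WT replicate 5 to 557 counts in WT replicate 2. The log2 fold change was -0.32 (SE 0.69). It was -0.84 without WT replicates 5 and 6, a choice made after their values were seen, -0.41 without WT replicate 4 and 0.044 without WT replicate 2. Gdf15 and Fgf21, often measured together as stress hormones, parted in the WT livers: WT replicates 5 and 6 had the lowest Fgf21 of all 10 libraries but 162 and 206 CPM of Gdf15, above every KO liver.

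**Figure D3:**
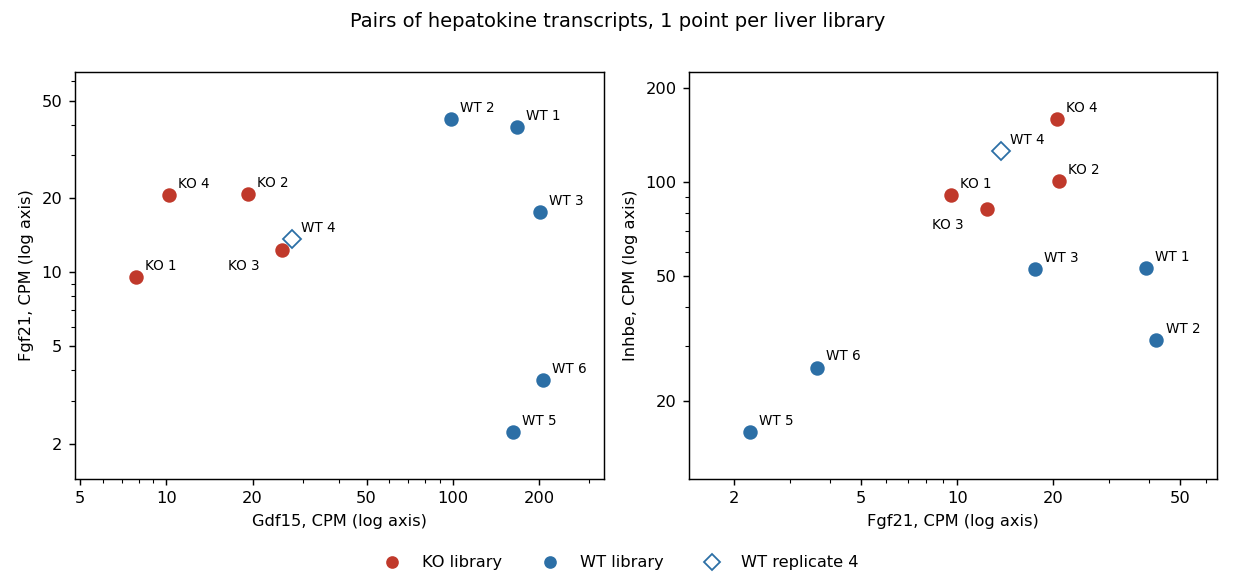
Fgf21 against Gdf15 (left) and Inhbe against Fgf21 (right), in CPM on log axes, with 1 point per library. WT replicates 5 and 6 combined high Gdf15 with the lowest Fgf21 and low Inhbe, and WT replicate 4 lay beside the KO livers in both plots.

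In the receptor system of Fgf21, Klb was at 5.99 ± 1.49 CPM in KO and 2.52 ± 1.99 CPM in WT and did not pass (log2 fold change 1.24, edgeR Benjamini-Hochberg adjusted p = 0.148). It passed without WT replicate 4 (log2 fold change 1.65, adjusted p = 0.0231), whose 5.58 CPM was the highest WT level. That fit called 2893 genes over the whole table, against 182 with all 10 libraries. Klb remained uncalled when any 1 of the other 9 libraries was left out (edgeR adjusted p 0.128 to 0.296). Fgfr4, the main FGF receptor of hepatocytes, was at 57.3 ± 15.8 CPM in KO and 58.9 ± 22.1 CPM in WT (adjusted p = 0.944), and Fgfr1 at 11.4 ± 2.97 CPM in KO and 8.59 ± 2.89 CPM in WT (adjusted p = 0.345). Of 17 tested receptors and co-receptors linked to these hormones, 1 was called, higher in KO, and the median log2 fold change was 0.0026. The called gene was Insr, the insulin receptor, which is restrained by Ahsg but is not the receptor of any of the 9.

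The pair of angiopoietin-like genes behaved differently. Angptl4 (ENSMUSG00000002289.16, chromosome 17, 33773750 to 33781830, minus strand, protein coding), the inhibitor of lipoprotein lipase that is raised in fasting, was at 228, 205, 217 and 280 CPM in KO livers, against a lowest value of 184, a median of 251.1 and a highest of 275 CPM in WT livers. The ranges overlapped over most of their width, and the log2 fold change was -0.07 (SE 0.16). Its spread within WT, a coefficient of variation of 12.8%, was the smallest of the group.

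Angptl8 (ENSMUSG00000047822.8, chromosome 9, 21835510 to 21837347, plus strand, protein coding), which is raised by feeding and insulin, was at 32.9, 59.1, 93.9 and 40.9 CPM in KO livers, against 11.7, 3.02, 36.5, 59.7, 2.42 and 17.2 CPM in WT replicates 1 to 6. All KO livers lay above 4 of the 6 WT livers, and WT replicates 3 and 4 lay inside the KO range. The WT range spanned 24.7-fold, from 28 counts in WT replicate 5 to 877 in WT replicate 4. The log2 fold change was 1.38 (SE 0.74), 1.997 without WT replicate 4 and 2.06 with limma-voom. Angptl8 lies inside Dock6, which is transcribed from the opposite strand, with 0 shared exon bases. Dock6 was at 15.2 to 24.4 CPM in KO and 7.47 to 14.5 CPM in WT livers other than replicate 4, which had 25.3 CPM, so it moved in part with Angptl8; reads of Dock6 introns counted as Angptl8 were not tested.

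Around these inhibitors, 12 lipases and their partners were tested, and 0 were called by edgeR's quasi-likelihood test (1 at an unadjusted p under 0.05), with 0 also by DESeq2 and limma-voom and 1 higher in KO without WT replicate 4. Lpl, the lipase itself, was at 14.6 ± 2.58 CPM in KO and 20.8 ± 8.85 CPM in WT (edgeR Benjamini-Hochberg adjusted p = 0.282). Of 17 insulin-responsive and lipogenic genes, which are regulated by feeding as Angptl8 is, 0 were called by edgeR. An unadjusted edgeR p under 0.05 was reached by 5, beside 3554 of all 13688 tested genes. DESeq2 called 2 lower and 1 higher, limma-voom 0, and the fit without WT replicate 4 called 3 lower and 2 higher. Those settings called 1624, 318 and 2893 genes over the whole table, in that order. Of the 17 genes, 9 had fold changes below 0, and the median log2 fold change was -0.11. Mlxipl, which encodes the carbohydrate-responsive factor ChREBP, was at 166 ± 44.7 CPM in KO and 110 ± 45.6 CPM in WT (adjusted p = 0.222).

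Inhbe (ENSMUSG00000047492.5, chromosome 10, 127348857 to 127354411, minus strand, protein coding) was at 90.9, 101, 82.0 and 159 CPM in KO livers, against 53.1, 31.3, 52.7, 125, 15.9 and 25.5 CPM in WT replicates 1 to 6. Every WT liver except replicate 4 lay below every KO liver, and replicate 4 lay inside the KO range. The log2 fold change was 1.09 (SE 0.47), and 1.60 without WT replicate 4. The antisense transcript Gm47200 that overlaps the gene had at most 8 counts in a library.

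The other inhibin beta subunits divided by gene. Inhbc, which encodes the activin C subunit and is likewise made mainly in liver, was at 63.7, 56.1, 51.4 and 82.6 CPM in KO livers, against 5.35 to 21.6 CPM in WT livers other than replicate 4 and 66.0 CPM in that one. It did not pass over all 10 libraries (log2 fold change 1.58, SE 0.58, edgeR Benjamini-Hochberg adjusted p = 0.128) and passed without WT replicate 4 (2.38, adjusted p = 0.00121). Inhba, the activin A subunit, was at 21.1 to 56.9 CPM in KO and 1.19 to 26.3 CPM in WT (log2 fold change 1.99, adjusted p = 0.139, and 2.66 with adjusted p = 0.0328 without WT replicate 4), and 2.86 with limma-voom (adjusted p = 0.0503). Inhbb, named after its values were seen, ran the other way, at 7.78 to 10.8 CPM in KO and 11.3 to 41.1 CPM in WT without overlap. It did not pass (log2 fold change -1.14, adjusted p = 0.0875). The fit without WT replicate 4 called 2893 genes over the whole table, against 182 with all 10 libraries. Inhbc and Inhba remained uncalled when any 1 of the other 9 libraries was left out (edgeR adjusted p 0.161 to 0.240 and 0.140 to 0.294).

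Fst, which encodes the activin-binding inhibitor follistatin, fell to 1.71, 2.23, 1.61 and 1.93 CPM in KO livers, against 3.56 to 14.5 CPM in WT livers. The groups did not overlap, and the log2 fold change was -2.25 (SE 0.43, edgeR Benjamini-Hochberg adjusted p = 0.0440). It was the only call among 11 tested inhibin subunits, follistatins and SMADs. An unadjusted edgeR p under 0.05 was reached by 5 of the 11, beside 3554 of all 13688 tested genes. The call of Fst held without WT replicate 4 (adjusted p = 0.00145) or WT replicate 6 (0.0374) and was lost without any 1 of the other 8 libraries (0.0522 to 0.146), with log2 fold changes of -2.42 to -2.07 throughout; it was also lost with limma-voom (0.0552). Acvr2a, an activin receptor, was at 14.7 ± 2.28 CPM in KO and 17.5 ± 5.15 CPM in WT (adjusted p = 0.495).

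**Figure D4:**
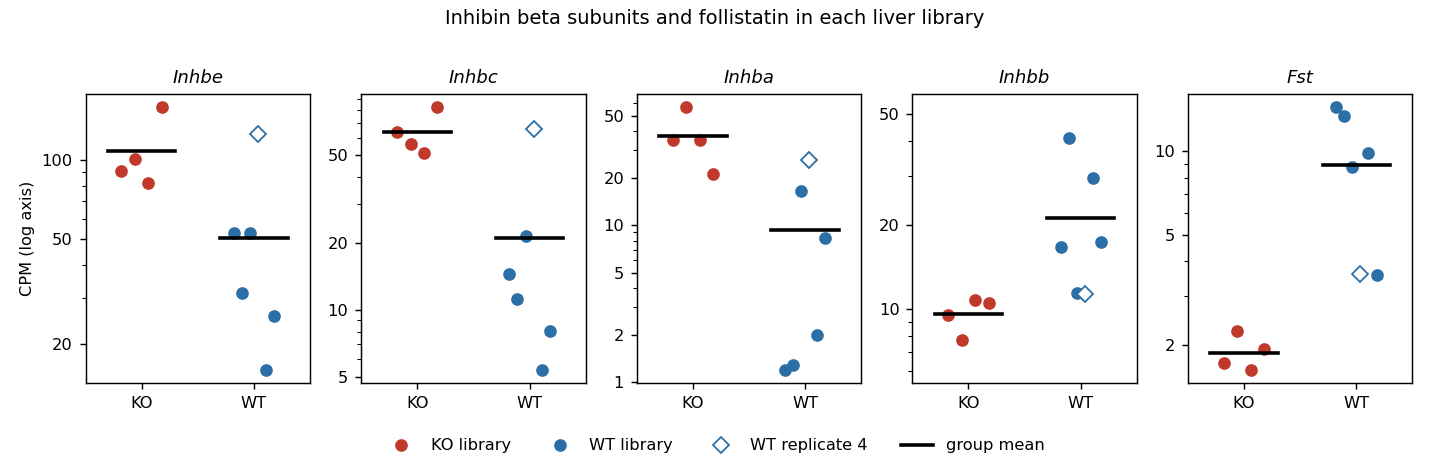
CPM of Inhbe, Inhbc, Inhba, Inhbb and Fst in each library (log axes, a separate scale for each gene), with KO left of WT, the group mean as a line and WT replicate 4 as an open diamond. Inhbe, Inhbc and Inhba had higher means in KO and shared a high WT replicate 4, while Inhbb and Fst were lower in every KO liver than in any WT liver.

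The fetuins were nearly level between genotypes. Ahsg (ENSMUSG00000022868.6, chromosome 16, 22891277 to 22899449, plus strand, protein coding), which binds calcium phosphate and restrains the insulin receptor, was at 4803, 5621, 5193 and 4415 CPM in KO livers, against a lowest value of 2854 (WT replicate 4), a median of 5035 and a highest of 5886 CPM in WT livers. The log2 fold change was 0.08 (SE 0.22) and -0.032 without WT replicate 4. Fetub (ENSMUSG00000022871.13, chromosome 16, 22918334 to 22939778, plus strand, protein coding), an inhibitor of the egg-coat protease ovastacin, was at 491, 562, 478 and 631 CPM in KO livers, against a lowest value of 459, a median of 549 and a highest of 732 CPM in WT livers, with a log2 fold change of -0.07 (SE 0.17). The KO livers of each fetuin lay inside its WT range. Ahsg shares 62 exon bases with the antisense transcript Gm30505, which stayed at or below 5.33 CPM.

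Insr, which encodes the insulin receptor, rose to 108, 117, 123 and 116 CPM in KO livers, against 64.2 to 86.2 CPM in WT livers. The groups did not overlap, and the log2 fold change was 0.60 (SE 0.13, edgeR Benjamini-Hochberg adjusted p = 0.0468). The call held without WT replicate 4 (adjusted p = 0.00589) and was lost without any 1 of the other 9 libraries (0.0640 to 0.149) and with no filter on low counts (0.0598). Of 5 tested relatives of the fetuins and other cystatins, 0 were called by edgeR's quasi-likelihood test. An unadjusted edgeR p under 0.05 was reached by 1, beside 3554 of all 13688 tested genes. DESeq2 and the fit without WT replicate 4 each called 1 lower, and limma-voom called 0. Those settings called 1624, 2893 and 318 genes over the whole table, in that order. Hrg, the histidine-rich glycoprotein of the same superfamily, was at 378 ± 23.6 CPM in KO and 370 ± 128 CPM in WT (adjusted p = 0.951).

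Lect2 (ENSMUSG00000021539.9, chromosome 13, 56542464 to 56548502, minus strand, protein coding) was at 75.6, 69.1, 64.8 and 83.3 CPM in KO livers, against a lowest value of 39.5, a median of 77.1 and a highest of 103 CPM in WT livers. The KO livers lay inside the WT range, and the log2 fold change was -0.01 (SE 0.23), and 0.030 without WT replicate 4. Met, the receptor of hepatocyte growth factor, to which Lect2 is known to bind, was at 38.5 ± 6.79 CPM in KO and 30.8 ± 9.06 CPM in WT (edgeR Benjamini-Hochberg adjusted p = 0.348).

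Of 15 other beta-catenin target genes of liver, 12 had fold changes above 0 and the median log2 fold change was 0.39. Of all tested genes, 51.6% had fold changes below 0. An unadjusted edgeR p under 0.05 was reached by 7 of the 15, beside 3554 of all 13688 tested genes. After adjustment 1 was called higher and 1 lower. Glul, glutamine synthetase, rose to 564 to 666 CPM in KO, against 185 to 474 CPM in WT (log2 fold change 1.13, SE 0.24, edgeR Benjamini-Hochberg adjusted p = 0.0468). Rhbg, an ammonium transporter, fell to 0.462 to 1.74 CPM in KO, against 2.18 to 5.80 CPM in WT (log2 fold change -1.91, SE 0.38, adjusted p = 0.0440). Both calls held without WT replicate 4 (adjusted p = 8.25e-04 and 0.00244) and were lost without any 1 of the other 9 libraries (0.0550 to 0.148). Without WT replicate 4 the list had 6 genes called higher and 1 lower, in a fit that called 2893 genes over the whole table.

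Across the group, 2 of the 9 hepatokine genes, Gdf15 and Tsku, were among the genes called lower in KO over the whole table (adjusted p under 0.05), where 0.767% of the 13688 tested genes were called lower, and 0 were called higher, where 0.563% were. In all 1.33% of tested genes were called. The livers of the genotypes did not overlap in the same 2 genes, Gdf15 and Tsku, and in 6.90% of all tested genes. Since this contrast was in view when the genes were chosen, these counts describe the group and support nothing. Of the 9 fold changes 6 were below 0, and their median was -0.07 on the log2 scale, beside -0.02 over all tested genes. Gdf15 was no longer called without KO replicates 1, 2, 3 or 4 or WT replicates 1, 3, 5 or 6, with log2 fold changes between -3.53 and -2.98 when any 1 library was left out. Tsku was no longer called without KO replicates 1, 2, 3 or 4 or WT replicate 1, with log2 fold changes between -1.56 and -1.34.

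**Figure D5:**
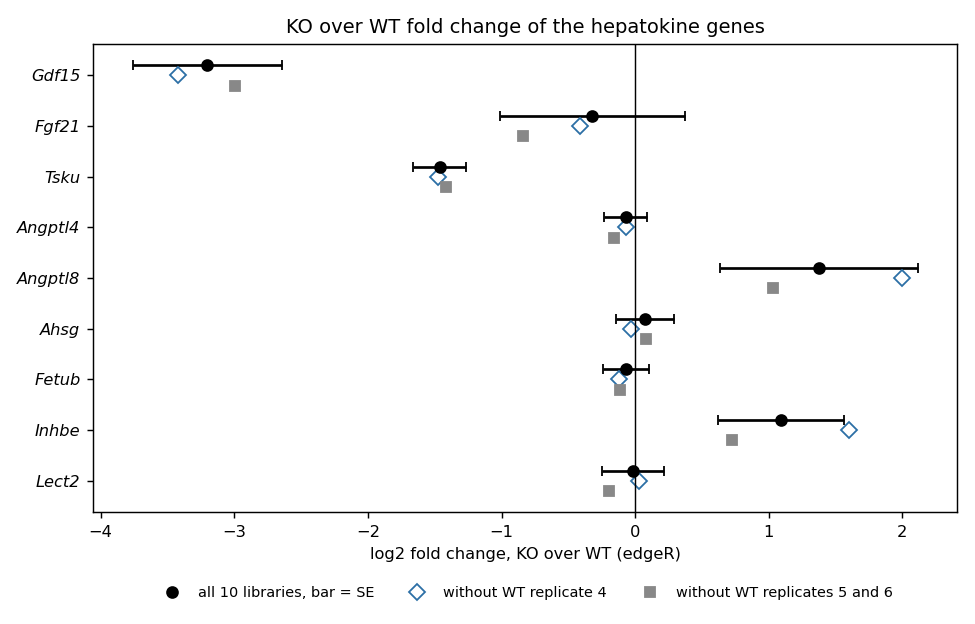
Log2 fold change of KO over WT for each gene, fitted on all 10 libraries (black points, bars show the SE), without WT replicate 4 (open diamonds) and without WT replicates 5 and 6 (grey squares). Gdf15 and Tsku lay below 0 in all 3 fits, Angptl8 and Inhbe above 0 and farthest without WT replicate 4, and Angptl4, Ahsg, Fetub and Lect2 near 0.

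The group was less uniform among WT livers than among KO livers, as most genes were. The coefficient of variation was higher in WT for 7 of the 9 genes, all but Gdf15 and Angptl4, and for 80.4% of all tested genes. It reached 103% for Angptl8, 87.3% for Fgf21 and 78.1% for Inhbe in WT, against 47.8%, 36.3% and 32.3% in KO. WT replicate 4 was closer to the average KO level than to the average of the 5 remaining WT livers for 7 of the 9 genes, all but Tsku and Angptl4, and for 69.7% of all tested genes.

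Among 33 tested transcription factors and kinases known to act on these genes, 0 were called by edgeR's quasi-likelihood test. An unadjusted edgeR p under 0.05 was reached by 14, beside 3554 of all 13688 tested genes. DESeq2 called 4 lower and 2 higher, limma-voom 1 higher, and the fit without WT replicate 4 called 6 lower and 7 higher. Over the whole table these settings called 1624, 318 and 2893 genes, in that order. Atf4, the effector of the integrated stress response that induces Fgf21 and Gdf15, was at 174 ± 17.6 CPM in KO and 240 ± 73.1 CPM in WT (log2 fold change -0.47, edgeR Benjamini-Hochberg adjusted p = 0.187). Atf4 did not rank the WT livers as Fgf21 did: it was at 374 and 268 CPM in WT replicates 2 and 1, which had the highest Fgf21, but at 224 and 212 CPM in WT replicates 5 and 6, which had the lowest, and at 175 and 189 CPM in WT replicates 3 and 4. Among KO livers Atf4 was at 155, 197, 175 and 169 CPM in replicates 1 to 4. Like Fgf21 it was highest in replicate 2 and lowest in replicate 1, but replicates 3 and 4 stood in the opposite order. Ddit3, which encodes CHOP, a partner of Atf4, was at 20.7 ± 3.03 CPM in KO and 27.0 ± 8.28 CPM in WT (adjusted p = 0.295). In WT replicates 1 to 6 Ddit3 was at 34.8, 35.0, 20.3, 33.7, 20.5 and 17.7 CPM, so it was also highest in replicates 2 and 1. In KO replicates 1 to 4 it was at 17.8, 24.9, 19.5 and 20.6 CPM, the same order as Fgf21. The part of either factor in the level of Fgf21 was not tested. Ppara, the fasting-activated receptor that induces Fgf21 and Angptl4, was at 34.8 ± 8.40 CPM in KO and 21.2 ± 5.39 CPM in WT (log2 fold change 0.72, adjusted p = 0.0829, with adjusted p = 0.0424 by DESeq2 and 0.0170 without WT replicate 4). Ppara remained uncalled when any 1 of the other 9 libraries was left out (edgeR adjusted p 0.100 to 0.204).

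Of 24 tested targets of the integrated stress response, 21 had fold changes below 0, beside 51.6% of all tested genes. Their median log2 fold change was -1.48, beside -0.02 over all tested genes. An unadjusted edgeR p under 0.05 was reached by 18 of the 24, beside 3554 of all 13688 tested genes. After adjustment only Psat1 and Sesn2 were called, both lower in KO. DESeq2 called 15 lower, limma-voom 0, and the fit without WT replicate 4 called 16 lower and 1 higher. Over the whole table these settings called 1624, 318 and 2893 genes, in that order. Sesn2, a nutrient-sensing stress protein, fell to 2.65 to 4.85 CPM in KO, against 6.46 to 27.6 CPM in WT (log2 fold change -2.06, SE 0.41, edgeR Benjamini-Hochberg adjusted p = 0.0440). Psat1, a serine synthesis enzyme, fell to 1.46 to 2.11 CPM in KO, against 1.91 to 78.8 CPM in WT, with WT replicate 4 lowest (log2 fold change -4.32, SE 0.83, adjusted p = 0.0440). Both calls held without WT replicate 4 (adjusted p = 0.00153 and 3.17e-04) and were lost without any 1 of the other 9 libraries (0.0552 to 0.148) and with limma-voom (0.0523 and 0.113, where the log2 fold change of Psat1 was -3.62). Psat1 was also lost with no filter on low counts (0.0738). Inhbe, whose promoter window holds the C/EBP-ATF element, was higher in KO livers than in every WT liver except replicate 4. Whether that element has any part in the level of Inhbe was not tested.

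Of 24 tested targets of PPAR-alpha other than Fgf21 and Angptl4, 17 had fold changes above 0 (median log2 fold change 0.54). Of all tested genes, 51.6% had fold changes below 0. An unadjusted edgeR p under 0.05 was reached by 14 of the 24 targets, beside 3554 of all 13688 tested genes. With all 10 libraries 1 was called higher and 0 lower, against 10 higher and 1 lower without WT replicate 4. Over the whole table these fits called 182 and 2893 genes. Acadm, a mitochondrial fatty acid dehydrogenase, rose to 257 to 384 CPM in KO, against 130 to 243 CPM in WT (log2 fold change 0.89, SE 0.20, edgeR Benjamini-Hochberg adjusted p = 0.0495). This call held without WT replicate 4 (adjusted p = 0.00236) and was lost without any 1 of the other 9 libraries (0.0693 to 0.148).

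Among 36 other tested secreted liver hormones and carriers, 0 were called by edgeR's quasi-likelihood test (15 at an unadjusted p under 0.05) and by limma-voom, 3 were lower and 5 higher in KO by DESeq2, and 5 were lower and 8 higher without WT replicate 4. Their fold changes divided evenly, 19 above and 17 below 0, with a median of 0.02 on the log2 scale. Over the whole table, 3554 of 13688 genes had an unadjusted edgeR p under 0.05. DESeq2 called 1624 genes there, and the fit without WT replicate 4 called 2893. Igfbp1, a stress-responsive carrier of insulin-like growth factors, was at 36.1, 66.3, 56.9 and 79.5 CPM in KO and 38.7 to 1242 CPM in WT (log2 fold change -2.32, SE 0.96, edgeR Benjamini-Hochberg adjusted p = 0.159), with WT replicate 2 alone at 1242 CPM and the next WT liver at 262 CPM. Without WT replicate 2 the log2 fold change of Igfbp1 was -0.87, with limma-voom it was -1.25 and with the replicate block -1.17.

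Setting genotype aside, genes were ranked by how their log2 CPM followed Gdf15, Fgf21 or Tsku as deviations from the group mean over the 10 libraries, among 9435 genes with a mean of at least 5 CPM. The libraries share their depth and their overall structure, so these are descriptions of likeness with no p. Fgf21 had the closest companions: Ctcf, a chromatin insulator protein (Pearson r 0.981, Spearman rho 0.952), Api5, an apoptosis inhibitor (0.969 and 0.879), and Rab10, a small GTPase (0.966 and 0.939), and r stayed at 0.906 or more without WT replicates 5 and 6. For Fgf21, 4.08% of the compared genes had r above 0.8, against 0.943% for Gdf15 and 0.106% for Tsku. The genes most like Gdf15 were Rwdd3 (r 0.947, rho 0.733), Rfwd3, a ubiquitin ligase (r 0.946, rho 0.842), and Dph5, an enzyme of diphthamide synthesis (r 0.943, rho 0.903), with r of 0.827, 0.854 and 0.898 without WT replicate 4 and KO replicate 1. Those most like Tsku were Amz2 (r 0.895, rho 0.758), Rab32, a small GTPase (r 0.879, rho 0.673), and Lcp1, an actin-bundling protein of leukocytes (r 0.864, rho 0.891), with r of 0.753, 0.776 and 0.860 without WT replicate 6 and KO replicate 4.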

How the data were processed

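Oligo(dT)-selected liver RNA was sequenced on an Illumina platform, per the labels' protocols. What the authors deposited is a table of raw read counts by gene symbol, a column for each library. STAR, HTSeq, DESeq2 and build mm10 are named in the submitters' processing notes. Versions, gene annotation and strand mode were not given in the sources used here, so reads of overlapping or antisense genes may be mixed. All 10 columns were used. No label ties a library to a named animal, so the p-values cover the spread among these libraries, part of which may be technical. Libraries within a genotype differed by more than sampling noise (lowest chi-square per degree of freedom 20.8), and none was taken as a copy.

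All genes were fitted together with edgeR 4.0.16 in R 4.3.3 (quasi-likelihood test, robust dispersion, TMM, filterByExpr, no covariate). This covered 13688 genes and 99.8% of counts, with Benjamini-Hochberg adjustment over all of them and calls under 0.05. The SE is the absolute log2 fold change divided by the square root of F. CPM use TMM-adjusted library sizes, and log2 CPM a prior count of 2. The fit was checked on simulated counts. Alternatives were DESeq2 1.42.0, limma-voom (limma 3.58.1), other scalings and filters, a replicate block, and leaving libraries out. Coordinates and exon lengths are from GENCODE M21 (GRCm38, the assembly of mm10), which held 22277 of 23056 symbols.

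The hepatokine genes, gene lists, panel and tests were chosen with earlier results of these data known. Named genes were the 9 hepatokines, a panel of related genes, up to 3 called members of each list by smallest p, and the 3 genes most like each of Gdf15, Fgf21 and Tsku; exceptions are marked, and a panel gene is not reported here.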

Additional observations from a re-analysis of the deposited data

Results flagged for a closer look

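Within-group spread was screened in 64 groups (32 genes in 2 genotypes) for a library that stood apart from its group, which chance gives in about 1 of 20 groups, and 4 were found, all in WT. Angptl4 was at 184 CPM in WT replicate 6, apart from the nearest other WT liver at 246 CPM. Inhbe was at 125 CPM in WT replicate 4, with the nearest other WT liver at 53.1 CPM, and Inhbc was at 66.0 CPM in the same liver, with the next at 21.6 CPM. Igfbp1 was at 1242 CPM in WT replicate 2, with the next at 262 CPM. WT replicate 2 also had the highest Kupffer cell, monocyte and lymphocyte marker sums, whose part in the Igfbp1 level was not tested.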

How the results depend on the processing

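Counts of calls depended strongly on the settings. The 182 called genes became 1624 with DESeq2 and 318 with limma-voom, and between 0 and 2893 when any 1 library was left out, with 2893 without WT replicate 4 and 55 or fewer without any other library. Without WT replicates 5 and 6 together, added after the data had been seen, 4 genes were called. Of the 9 hepatokines, 2 were called, against 1 with no filter (Tsku), 1 without WT replicates 5 and 6 (Tsku) and 0 to 3 when any 1 library was left out. With replicate numbers as a block, 1 gene and 0 hepatokines were called; same-numbered libraries did not deviate together (correlations of their deviations 0.179, 0.0690, -0.0290 and -0.0205), so the numbers were not taken to pair animals. The 7 called list genes named in the text (Insr, Fst, Glul, Rhbg, Sesn2, Psat1 and Acadm) were not called with the block (adjusted p 0.113 to 0.149) or without WT replicates 5 and 6 together (0.0785 to 0.121).

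Gdf15, Tsku, Angptl4, Angptl8 and Inhbe kept the sign of their fold change in all 18 alternatives. Those near 0 turned in some, all given as log2 fold changes. Fgf21 gave 0.24 with limma-voom and -0.56 to 0.044 when any 1 library was left out (above 0 without WT replicate 2), Ahsg -0.032 to 0.15 (below 0 without WT replicate 4) and Fetub -0.15 to 0.017 (above 0 without WT replicate 2). Lect2 gave 0.028 with upper-quartile scaling, 0.047 with limma-voom and -0.14 to 0.10 (above 0 without KO replicate 2 or 3 or WT replicate 2, 3 or 4). Fgfr4 gave 0.00598 with upper-quartile scaling, 0.00364 with limma-voom and -0.21 to 0.16 (above 0 without KO replicate 1 or 4 or WT replicate 2). Hrg gave -0.040 with the replicate block, -0.12 without WT replicates 5 and 6 together and -0.082 to 0.18 (below 0 without KO replicate 2 or WT replicate 4 or 5). The causes were not tested. At this depth the lowest values of Fgf21 and Angptl8 rest on 26 and 28 counts.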
